A study of Mus musculus with 8 samples.

Results

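After a flash of light a photoreceptor has to switch off its activated proteins and rebuild the second messenger cGMP before it can respond again. Here 10 genes of this recovery were read from microarrays of isolated mouse photoreceptor cells: the retinal guanylate cyclases Gucy2e and Gucy2f, their calcium-sensing activators Guca1a and Guca1b, recoverin (Rcvrn), phosducin (Pdc), the rod exchanger Slc24a1, the visual pigment kinase Grk1, and the GTPase accelerator Rgs9 with its membrane anchor Rgs9bp. The members were the 10 genes, of 22911 named on the array, whose RefSeq transcripts are listed as the targets of probes that are not controls. They had 15 probes, all of which were well above background on 8 of 8 arrays and entered the test.

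The cells came from mice of strain C57BL/6 at postnatal day 8 (P8), on 4 arrays labelled Lpcat1 HZ (heterozygous) and 4 labelled Lpcat1 KO (global deletion of Lpcat1, an enzyme that builds phosphatidylcholine). Every array held photoreceptor cells that were enriched from dissociated retina by magnetic separation on CD73, a surface protein encoded by Nt5e, and no wild-type array was analysed here. Per the methods, the deletion was made on a C57BL6/N background and crossed to C57BL6/J mice, so that the mice used were not homozygous for the rd8 mutation of Crb1. The comparison asks whether the recovery genes differ between the labels at the age when photoreceptors of the KO retina begin to die, and the shared replicate numbers 1 to 4 give a second comparison.

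In the dark, cGMP holds cation channels of the outer segment open and calcium enters through them. Light closes the channels, the exchanger keeps removing calcium, and the fall in calcium lets the guanylate cyclase activating proteins GCAP1 (Guca1a) and GCAP2 (Guca1b) speed up cGMP synthesis. At the same time recoverin releases the kinase Grk1, which marks the visual pigment for arrestin, and the Rgs9 complex ends the active state of transducin. At P8 mouse rods are still forming outer segments, and these genes are being switched on.

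The promoters of 3 members held the letters TAATCC, a sequence preferred by homeodomain factors of the CRX and OTX2 type that drive photoreceptor genes. They are shown because both cyclases and Guca1a, which behaved unlike the cyclases across arrays, carry the match. The sequences are those of RefSeq on GRCm38.p6, from 250 bases before to 50 bases after the annotated start, 5′ to 3′ on the strand of the gene, and the capitals mark TAATCC or its reverse complement GGATTA. The Gucy2e window is chr11:69236973-69237272 on the minus strand, that of Gucy2f is chrX:142196887-142197186 on the minus strand, and that of Guca1a is chr17:47400557-47400856 on the minus strand.
Gucy2e: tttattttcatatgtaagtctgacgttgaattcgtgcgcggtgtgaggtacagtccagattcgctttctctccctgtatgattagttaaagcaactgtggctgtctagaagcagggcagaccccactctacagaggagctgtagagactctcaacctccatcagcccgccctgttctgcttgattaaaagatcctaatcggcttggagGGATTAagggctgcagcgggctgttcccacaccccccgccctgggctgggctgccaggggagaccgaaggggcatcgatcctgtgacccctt
Gucy2f: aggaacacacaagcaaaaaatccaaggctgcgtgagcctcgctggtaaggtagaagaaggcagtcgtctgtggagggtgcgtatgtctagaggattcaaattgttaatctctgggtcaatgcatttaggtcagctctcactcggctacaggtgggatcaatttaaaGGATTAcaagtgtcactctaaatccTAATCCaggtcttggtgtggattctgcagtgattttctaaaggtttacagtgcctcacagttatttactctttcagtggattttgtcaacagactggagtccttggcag
Guca1a: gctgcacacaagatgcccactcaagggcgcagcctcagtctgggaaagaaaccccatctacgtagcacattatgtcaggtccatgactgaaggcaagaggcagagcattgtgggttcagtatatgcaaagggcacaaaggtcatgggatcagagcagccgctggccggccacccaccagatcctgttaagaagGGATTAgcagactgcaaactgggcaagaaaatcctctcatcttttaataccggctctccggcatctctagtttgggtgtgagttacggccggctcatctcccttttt
The match began 42 bases before the start in Gucy2e, 84 and 59 bases before it in Gucy2f and 57 bases before it in Guca1a. A window was given for 7 of the 10 members, and those of Pdc, Slc24a1, Grk1 and Rgs9 held no TAATCC on either strand. Of 32851 promoter windows of 300 bases, 7.06% held TAATCC at least once and 0.359% at least 2 times, as Gucy2f did. TGCTGA, the core of the element bound by the rod factor NRL, was also searched on both strands and was found in Grk1 and Rgs9 and in 19.5% of all windows. A match describes the letters of the window and shows no binding.

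The normalized log2 signal is the log2 of the background-subtracted spot signal minus the 75th percentile of the array, so that 0 is the signal of that percentile. The 75th percentiles lay between 882 and 1024 intensity units, and precision was limited by the 4 arrays of each label. The selection marker Nt5e was bright, with a mean signal of 4.33 on the arrays labelled HZ and 4.21 on those labelled KO, and all 10 photoreceptor markers were tested. The probe of Lpcat1 did not separate the labels (difference -0.037, standard error 0.11, limma adjusted p = 0.931), and where it lies beside the deletion was not analysed here, so the arrays are named by their labels. All KO arrays lay in row 1 of the slide and all HZ arrays in row 2, while the replicate number was also the slide column, so label and row cannot be told apart. On HZ 4 the scanner software marked 458 spots non-uniform, and on each other array 2 to 25, and the dimmest of its tested probes deviated by a median of 0.41 from their means over arrays. Markers of the retinal pigment epithelium were lower on the arrays labelled KO in 13 of 13 tested genes (median -1.67), with mean deviations of 0.064 to 1.39 on HZ arrays and -1.51 to -0.21 on KO arrays. Markers of microglia were higher in 12 of 12 (median 0.78), with mean deviations of -0.78 to 0.44 on HZ arrays and -0.021 to 0.84 on KO arrays. The part of these cells in the results was not tested. In such samples fewer cells of a type and less RNA per cell cannot be told apart, and nothing states that the 4 samples of a label came from separate animals, so the p-values measure the spread between these samples.

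The KO and HZ labels did not separate any of the 10 recovery genes. The largest negative differences were those of Pdc (-0.33), Guca1b (-0.26), Rcvrn (-0.21) and Gucy2f (-0.20), Guca1a had the largest positive difference (0.32), and those of Gucy2e, Rgs9, Grk1 and Rgs9bp ranged from -0.046 to 0.058. Each difference is the mean log2 signal under the KO label minus that under HZ. By limma with Benjamini-Hochberg adjustment over 34303 probes, 0 members had a fold above 1.2 together with an adjusted p below 0.05, as did 0% of the 14848 tested genes. The looser thresholds of the methods are a fold above 1.5 with an adjusted p below 0.5, and there 0 members passed in either direction, against 1.13% of all genes lower and 0.33% higher. At an unadjusted p of 0.05, 0 members were lower and 0 were higher, against 3.5% and 5.81% of all genes. The difference was below 0 in 6 of 10 members and in 43.2% of all genes, and its median was -0.074 over the members and 0.029 over all genes. The KO array was below the HZ array in 4 of 4 pairs of the same replicate number in Gucy2f, Guca1b and Pdc, 3 of 10 members against 9.84% of all genes. In 0 members did all KO arrays lie below all HZ arrays, against 2.52% of all genes.

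**Figure D1:**
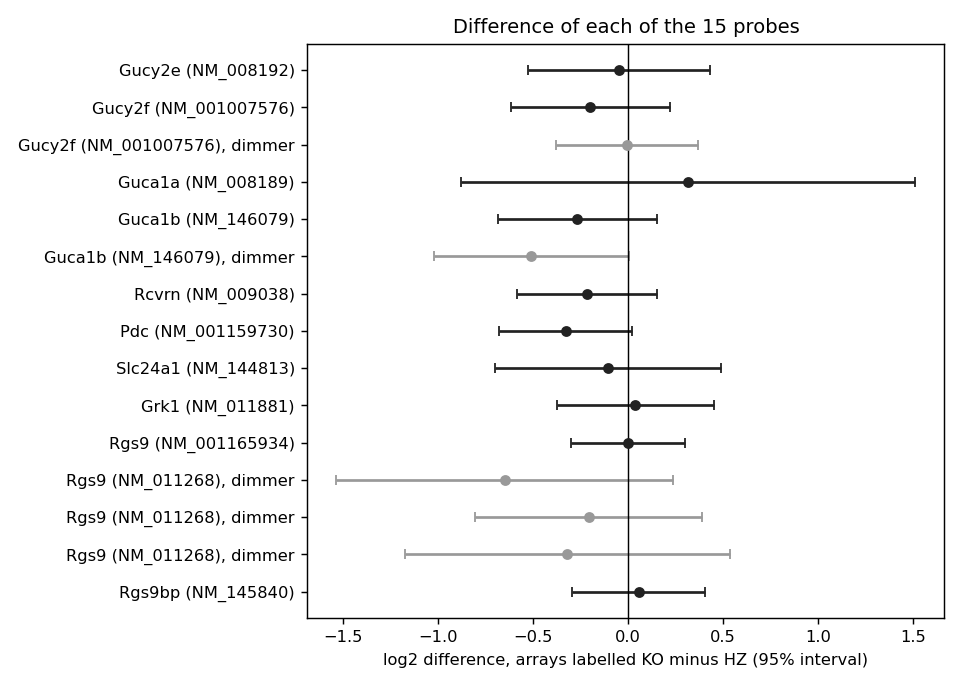
Difference of each of the 15 probes between the KO and HZ labels, on the log2 scale, with the 95% interval from limma as bars. Black points are the probe of highest mean of each gene and grey points the dimmer probes; every interval crosses 0, and that of Guca1a is the widest, from -0.88 to 1.51.

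The cyclases make cGMP from GTP in the outer segment. Gucy2e, which encodes GC-E, the main cyclase of rods and cones, had signals of -0.26, -0.60, -0.93 and -0.058 on HZ 1 to HZ 4 and of -0.42, -0.76, -0.66 and -0.19 on KO 1 to KO 4. Arrays 1 and 4 were high and arrays 2 and 3 low under both labels, and the difference was -0.046 (standard error 0.21, adjusted p = 0.958). Gucy2f, which encodes the second cyclase, GC-F, had -0.74, -1.40, -1.13 and -0.72 on the HZ arrays and -1.03, -1.51, -1.20 and -1.04 on the KO arrays. From the HZ to the KO array of a number the signal fell by 0.067 to 0.33, but the labels overlapped and the difference of -0.20 (standard error 0.18) had an adjusted p of 0.774. With the replicate number in the model the adjusted p was 0.440, and with each array left out the difference lay between -0.33 (without HZ 2) and -0.094 (without KO 2). It was -0.11 without HZ 1 and -0.10 without HZ 4. The dimmer Gucy2f probe differed by -0.0054 (standard error 0.16) and was lower in 2 of 4 pairs, so the probes did not show the same fall.

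GCAP1 and GCAP2 bind calcium in the dark and activate the cyclases once calcium falls. Their genes are neighbours, with 0 genes listed between them, and on the HZ arrays they varied in opposite ways (r = -0.97 over 4 arrays), which was not seen on the KO arrays (r = -0.14). Guca1a had signals of -1.12, 0.86, 1.04 and -0.71 on HZ 1 to HZ 4 and of -0.41, 0.55, 0.53 and 0.67 on KO 1 to KO 4. HZ 1, HZ 4 and KO 1 were low and the other 5 arrays high, and the spread within the HZ label alone ran from -1.12 to 1.04. The difference of 0.32 (standard error 0.52, adjusted p = 0.870) was therefore small beside the spread, and it was -0.061 without HZ 1. Guca1b had 1.46, 1.12, 0.96 and 1.36 on the HZ arrays and 1.08, 0.57, 0.85 and 1.33 on the KO arrays. KO 2 was the lowest array and HZ 1 the highest, and all 4 KO arrays were below the HZ array of their number (difference -0.26, standard error 0.18, adjusted p = 0.718, and 0.446 with the replicate number in the model). It was -0.14 without KO 2.

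The second probe of Guca1b gave the largest difference relative to its error of all 15. It read -1.67, -2.10, -2.22 and -1.61 on the HZ arrays and -2.15, -2.97, -2.39 and -2.13 on the KO arrays. Within pairs the signal fell by 0.17 to 0.87, and the labels still overlapped, since HZ 3 was below KO 1 and KO 4. The difference was -0.51 (standard error 0.22, adjusted p = 0.614, and 0.357 with the replicate number in the model). It was -0.32 without KO 2 and -0.61 without HZ 3 (limma adjusted p = 0.831). Both Guca1b probes were lower in 4 of 4 pairs. On all arrays their folds, at most 1.42, lay under the 1.5 that the looser thresholds ask for.

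Recoverin holds Grk1 inactive while calcium is high. Rcvrn had signals of 6.36, 6.24, 6.11 and 6.51 on the HZ arrays and of 5.82, 5.91, 6.17 and 6.47 on the KO arrays. KO 1 and KO 2 were below all HZ arrays, whereas KO 3 and KO 4 lay among them, and the difference was -0.21 (standard error 0.16, adjusted p = 0.734). It was -0.34 without KO 4 and -0.12 without KO 1. Grk1, the kinase that phosphorylates the light-activated visual pigment, had 4.59, 4.48, 4.37 and 4.89 on the HZ arrays and 4.64, 4.40, 4.38 and 5.06 on the KO arrays. The KO array of a number differed from the HZ array by -0.083 to 0.17, and the difference of 0.040 (standard error 0.18, 95% interval -0.37 to 0.45) was among the smallest. Quantile normalization turned its sign (-0.035).

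Rgs9 and its anchor speed the hydrolysis of GTP by transducin, the step that sets the pace of rod recovery. The brightest Rgs9 probe, designed for NM_001165934, had signals of 1.29, 1.08, 1.12 and 1.42 on the HZ arrays and of 1.31, 0.95, 1.21 and 1.44 on the KO arrays. The arrays of number 2 were the lowest and those of number 4 the highest under both labels, and the difference was 0.0026 (standard error 0.13, 95% interval -0.30 to 0.30). Its sign turned with quantile normalization (-0.015) and with the percentile over detected probes (-0.028), and the mean over the 4 Rgs9 probes differed by -0.29. Rgs9bp, which tethers the complex to disc membranes, had 2.16, 1.88, 1.70 and 2.15 on the HZ arrays and 2.16, 1.75, 1.94 and 2.27 on the KO arrays. Again numbers 1 and 4 were high and numbers 2 and 3 low, and the difference was 0.058 (standard error 0.15, 95% interval -0.29 to 0.41).

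The other 3 Rgs9 probes, all designed for NM_011268, were dim, with mean signals of -3.50, -3.69 and -4.76. Their differences were -0.65 (standard error 0.39), -0.21 (0.26) and -0.32 (0.37). The first, a fold of 1.57, was lower in 4 of 4 pairs. With the replicate number in the model its limma adjusted p was 0.430 (unadjusted p = 0.058) in place of 0.691, which passed the looser thresholds. The share of all genes that passed them in that model was not counted. All 3 dim probes were highest on HZ 4, at -1.92, -2.90 and -3.61, the array whose dim probes and non-uniform spots stood apart. Without HZ 4 the differences were -0.23, 0.021 and 0.014.

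Phosducin binds the beta and gamma subunits of transducin and is among the most abundant soluble proteins of rods. Pdc had signals of 7.08, 6.74, 6.94 and 7.16 on the HZ arrays and of 6.88, 6.71, 6.75 and 6.28 on the KO arrays. KO 4 was the lowest of the 8 arrays and HZ 4 the highest, and in the other pairs the signal fell by 0.035 to 0.20. The difference was -0.33 (standard error 0.15, 95% interval -0.68 to 0.023, adjusted p = 0.627) and depended on KO 4, without which it was -0.20. With normexp background correction it was -0.60 (limma adjusted p = 0.226), which passed the looser thresholds. The share of all genes that passed with that correction was not counted. Slc24a1, the exchanger that removes calcium from the rod outer segment in return for sodium, had 0.81, 0.33, 0.044 and 1.02 on the HZ arrays and 0.39, 0.085, 0.35 and 0.97 on the KO arrays. HZ 3 and KO 2 were the lowest and both arrays of number 4 were high, and the difference was -0.10 (standard error 0.26, adjusted p = 0.918).

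**Figure D2:**
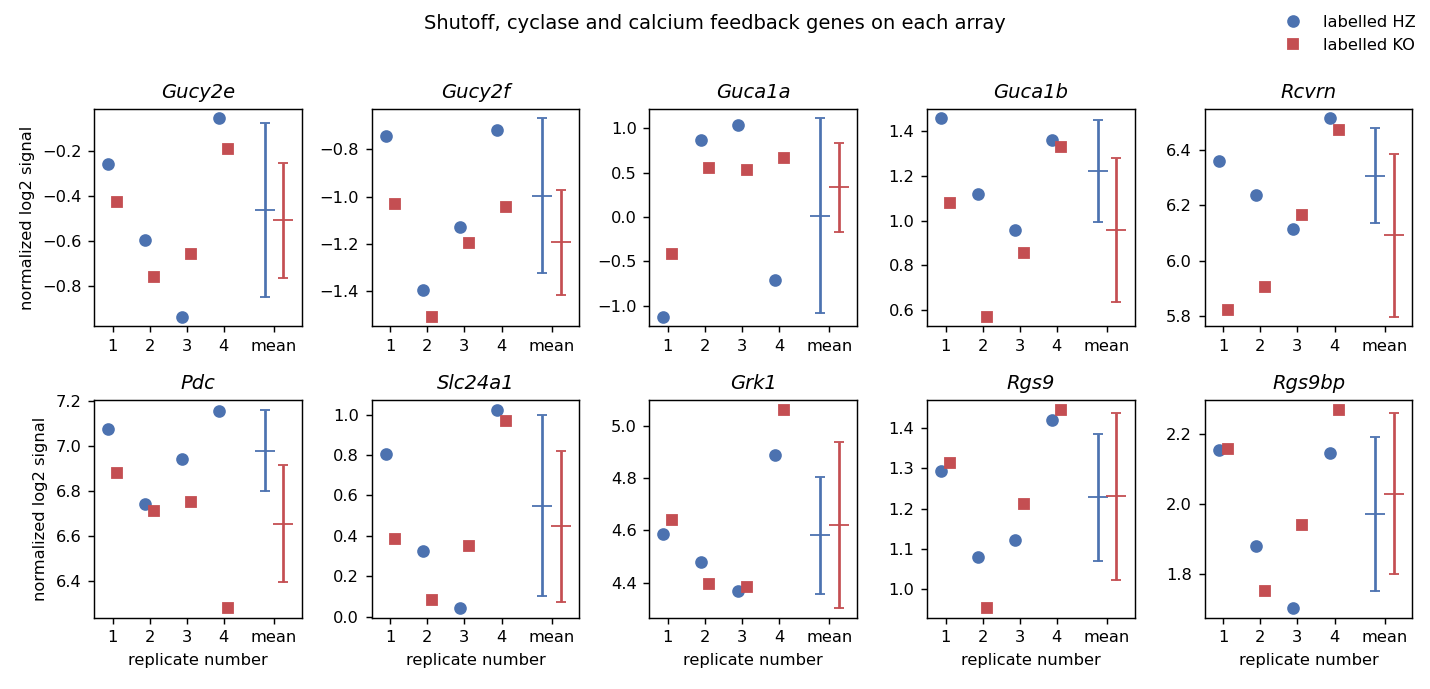
Normalized log2 signal of the 10 genes (vertical axes, each with its own range) by replicate number, with circles for arrays labelled HZ and squares for arrays labelled KO; the marks at the right give the mean and SD of the 4 arrays of a label. The labels overlap in all 10 genes, arrays 1 and 4 lie above arrays 2 and 3 in most of them, and Guca1a runs the other way on the HZ arrays.

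Replicate numbers separated these genes more visibly than the labels did. On the HZ arrays, numbers 1 and 4 both lay above numbers 2 and 3 in 9 of 10 members, all but Guca1a, and on the KO arrays they did so in 7. The shares of all genes with this order within a single label were not counted. The same order held within both labels in Gucy2e, Gucy2f, Guca1b, Slc24a1, Grk1, Rgs9 and Rgs9bp, 7 of 10 members against 5.83% of all genes. Averaged over both labels, numbers 1 and 4 lay above 2 and 3 in 7 of 10 members and in 17.4% of all genes. They also did so in 7 of 10 photoreceptor markers, in 5 of 10 genes of cGMP phosphodiesterase, channel and cyclase transport, and in 0 of 10 cone markers. This order was chosen after the values were seen and holds as a description. By limma's F-test over the replicate number, with the label in the model, 5 of 10 members had an unadjusted p under 0.05, against 13.2% of all genes. These were Grk1, Gucy2f, Gucy2e, Slc24a1 and Rgs9. Without HZ 1 or without KO 2 the count was 2, and without KO 4 it was 3, and the shares of all genes without those arrays were not counted. After adjustment over all probes 0 members passed 0.05, as did 0% of all genes, and the lowest adjusted p of a member was 0.295 for Grk1.

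The size of the pattern was modest. The mean of the pair of arrays of a number ranged over 0.60 for Grk1 (4.61, 4.44, 4.38 and 4.98 for numbers 1 to 4), 0.80 for Slc24a1 (0.60, 0.21, 0.20 and 1.00) and 0.67 for Gucy2e (-0.34, -0.68, -0.79 and -0.12). The range was above the median of all genes, 0.30, in 9 of 10 members, and it was largest in Guca1a (1.55, from -0.77 for number 1 to 0.78 for number 3). Pdc had the smallest range, 0.26, and its number means showed no such order. Number 4 had the highest mean in 8 of 10 members, and the lowest mean was that of number 2 in 5 members and of number 3 in 3. The shares of all genes with these orders were not counted, so they are not shown to be particular to the members. The median signal of all tested probes was -1.29 on HZ 4 and -1.40 to -1.35 on the other arrays.

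The members other than Guca1a and Pdc moved together over the 8 arrays. Over the 28 pairs among those 8 genes, Pearson's r lay between 0.49 and 0.97, as a description of arrays that share a slide and replicate numbers. The highest was that of Gucy2e with Slc24a1, a cyclase and the exchanger. Guca1a had r of -0.78 to -0.21 to the other 9 members, and Pdc had r of -0.28 to 0.50 to the 8. The genes outside all lists with the pattern most like the mean of the members, over 8 arrays, were Nfkbiz, Rexo2, Iqce, Ggn and Fam169a, with r between 0.966 and 0.968.

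**Figure D3:**
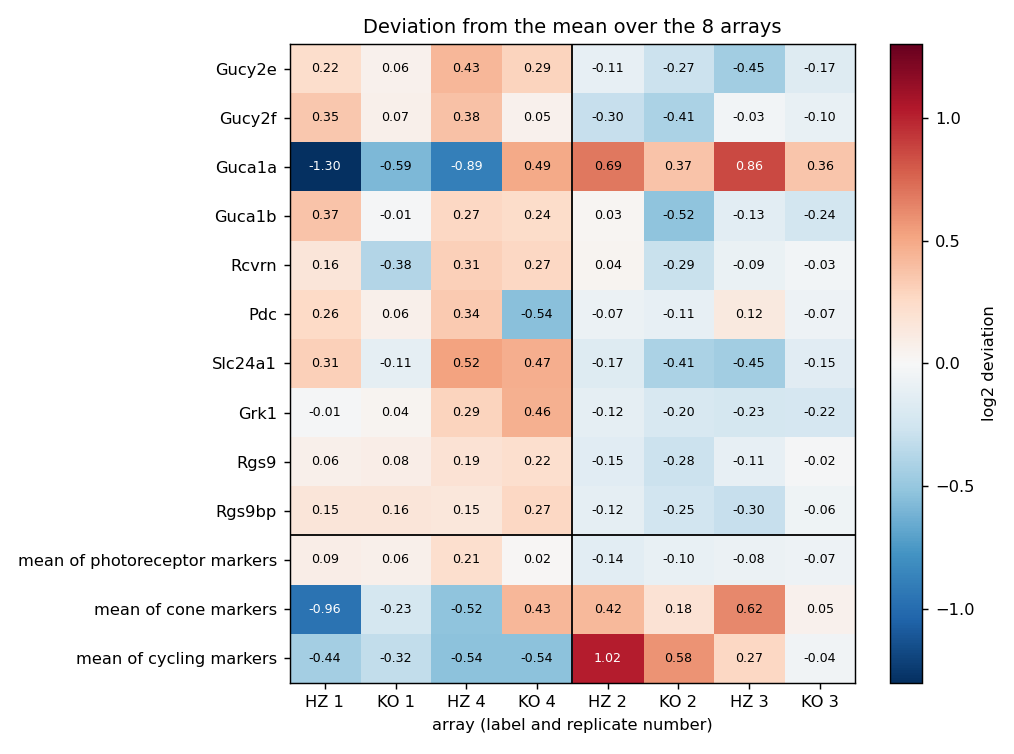
Deviation of each gene from its own mean over the 8 arrays, in log2 units by colour and printed number, with the arrays of numbers 1 and 4 left of the vertical line and those of 2 and 3 right of it. The lower rows give the mean deviation of 3 marker lists; most members are positive on the left and negative on the right, while Guca1a follows the cone markers and the cycling markers are negative on all 4 arrays of numbers 1 and 4.

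Guca1a followed the cone markers. The mean deviation of 10 cone markers, among them the cone opsins, Arr3, Gnat2 and Pde6h, was -0.96, 0.42, 0.62 and -0.52 on HZ 1 to HZ 4 and -0.23, 0.18, 0.053 and 0.43 on KO 1 to KO 4. The arrays low in cone markers, HZ 1, HZ 4 and KO 1, were the 3 arrays low in Guca1a, and KO 4 was high in both. Pearson's r between them was 0.977 (exact permutation p = 4.96e-05, adjusted p = 9.92e-04 over 20 relations) and Spearman's rank correlation 0.976 (exact permutation p = 3.97e-04, adjusted p = 0.00794). Without HZ 1 and HZ 4, the arrays farthest from the median in cone markers, r was 0.927. These p-values treat the 8 arrays as exchangeable, although the arrays of a number are not independent. The 20 relations took in the members with only the cone and the cycling markers, while other marker lists were scored on the same arrays. These tests were not planned, and the adjustment does not cover the choice of the lists. As a description within the design, the difference between the KO and HZ array of a number was 0.71, -0.31, -0.50 and 1.38 in Guca1a and 0.74, -0.24, -0.57 and 0.95 in the cone markers for numbers 1 to 4. These pair differences had r of 0.977, and r was 0.996 over the 4 HZ arrays and 0.881 over the 4 KO arrays. The other 9 members had r of -0.72 to -0.20 to the cone markers, with 0 past an adjusted p of 0.05. Of 14732 genes outside the cone list, 3 had an r to the cone markers at least as high as that of Guca1a. Chosen after its values were seen, the genes most like Guca1a itself were Kcnab1, Ccdc33, Fzd10, Syndig1l and Kcne2, with r of 0.973 to 0.988 over the 8 arrays.

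**Figure D4:**
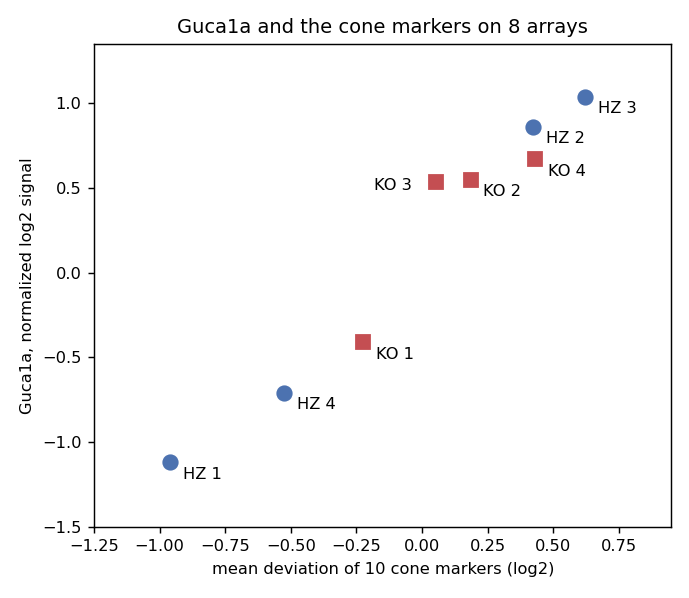
Normalized log2 signal of Guca1a (vertical axis) against the mean log2 deviation of 10 cone markers (horizontal axis) on the 8 arrays, circles for HZ and squares for KO. The arrays run from HZ 1, lowest in both, to HZ 3, highest in both, and the labels are mixed along the line.

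Markers of cycling and progenitor cells, and of Muller glia, ran against most members. The mean deviation of the cycling and progenitor markers was -0.44, 1.02, 0.27 and -0.54 on HZ 1 to HZ 4 and -0.32, 0.58, -0.044 and -0.54 on KO 1 to KO 4. The arrays of number 2 were the highest of their label and those of numbers 1 and 4 the lowest. Rgs9 had r of -0.891 to these markers (exact permutation p = 0.00308, adjusted p = 0.0308) and a rank correlation of -0.929 (exact permutation p = 0.00223, adjusted p = 0.0223), and r was -0.947 without HZ 2 and KO 2. Gucy2f had r of -0.850 (exact permutation p = 0.00742, adjusted p = 0.0494) and a rank correlation of -0.881 (exact permutation p = 0.00724, adjusted p = 0.0362), and r was -0.684 without them. The p-values treat the arrays as exchangeable, and their adjustment does not cover the choice of these markers. Between the KO and HZ arrays of a number the relation did not hold for Rgs9, whose 4 pair differences had r of 0.44 to those of the cycling markers, so it rests on differences between the 4 numbers (r of -0.97 over their means). For Gucy2f the pair differences had r of -0.89. The other members gave r between -0.81 and 0.65, with 0 of 8 past an adjusted p of 0.05 by r, while Slc24a1 passed by rank correlation (-0.905, exact permutation p = 0.00456, adjusted p = 0.0304). Markers of photoreceptors ran with the members, with mean deviations of 0.019 to 0.21 on the arrays of numbers 1 and 4 and of -0.14 to -0.070 on those of numbers 2 and 3. The mean deviation of 10 Muller glia markers was -0.24, 0.73, 0.20 and -0.12 on the HZ arrays and -0.27, 0.39, -0.21 and -0.48 on the KO arrays. Over the 8 arrays the members had r to this mean from -0.83 (Rgs9) to 0.47 (Guca1a), with 0.11 for Pdc. Number 2 was the highest of its label here too, and 8 of the 10 Muller glia markers had an unadjusted F-test p under 0.05, against 4 of 8 cycling markers. Bipolar markers were highest on number 2 as well, at 0.74 on HZ 2 and 0.11 on KO 2, with 4 of 10 under that p. The part of the cell mix in the number pattern was not tested.

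Among the other genes of the pathway, Rd3 had the largest positive difference. It encodes a protein that carries the retinal cyclases to the outer segment and holds them inactive on the way. Its signals were 3.24, 3.23, 2.87 and 2.98 on the HZ arrays and 3.90, 3.62, 3.64 and 3.90 on the KO arrays. Every KO array lay above every HZ array, a difference of 0.68 (standard error 0.12, 95% interval 0.40 to 0.97) with an adjusted p of 0.328. It was the 1 gene of the 10 in the list of cGMP phosphodiesterase, channel and cyclase transport that passed the looser thresholds, higher. The value lay between 0.61 and 0.74 under all 18 alternatives, and the adjusted p was above 0.5 without the filter on dim probes (0.679) and without HZ 1, HZ 3, KO 3 or KO 4 (0.591 to 0.719). In the rest of that list 5 genes were lower and 4 higher, and the median of the list was 0.044. Cngb3, a cone marker among them, also had every KO array above every HZ array (difference 0.34, standard error 0.12, adjusted p = 0.537). The share of all genes that were higher without overlap was not counted. Cnga1, a subunit of the rod channel, differed by -0.55 (standard error 0.26, adjusted p = 0.633, and 0.390 with the replicate number in the model). It was lower in 4 of 4 pairs and rested in part on KO 3, without which the difference was -0.30. Pde6h, the inhibitory subunit of cone phosphodiesterase, had the largest range over replicate numbers, 1.51, with means of 1.89, 3.28, 3.40 and 2.76.

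Among 9 partners in shutoff, 3 were lower and 6 higher (median 0.12), and 0 passed either pair of thresholds. Gnb1, the beta subunit of rod transducin and a binding partner of phosducin, had signals of 5.60, 5.56, 5.37 and 5.50 on the HZ arrays and of 5.38, 5.07, 4.62 and 4.04 on the KO arrays. The KO arrays were lower in 4 of 4 pairs, and KO 1 overlapped the HZ arrays. The difference was -0.73 (standard error 0.26, adjusted p = 0.546). It was -0.48 without KO 4, the array lowest in Pdc too, -1.17 with normexp background correction and -0.31 as the mean over its probes. It passed the looser thresholds with the replicate number in the model (adjusted p = 0.373), with normexp (0.235), with the stricter filter on dim probes (0.481), with trend and robust eBayes (0.413) and without HZ 2 (0.336). The shares of all genes that passed under these settings were not counted. Arr3, cone arrestin, differed by 0.49 (standard error 0.44, adjusted p = 0.770), and Gnat2, the alpha subunit of cone transducin, had the largest range over replicate numbers, 1.42. Of the cone opsins, Opn1mw differed by 0.41 (standard error 0.54) and Opn1sw by 0.17 (standard error 0.46). These cone differences rested on single arrays, and without HZ 1 they were 0.15 for Arr3, 0.046 for Opn1mw and -0.15 for Opn1sw. Of the 10 cone markers, 9 were higher under the KO label and 1 lower (median 0.24), while 43.2% of all genes were lower.

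Of 10 genes of calcium entry and buffering, 3 were lower and 7 higher (median 0.058), and 0 passed either pair of thresholds. Slc24a2, the exchanger of cones, had the largest difference (0.28, standard error 0.49, adjusted p = 0.879), which was -0.11 without HZ 1 and 0.66 without HZ 3. It also had the largest range over replicate numbers, with means of -3.03, -1.85, -1.40 and -2.18, an order unlike that of the rod exchanger Slc24a1. Atp2b2, a plasma membrane calcium pump, differed by -0.24 (standard error 0.13, adjusted p = 0.651), and by -0.15 without KO 1.

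**Figure D5:**
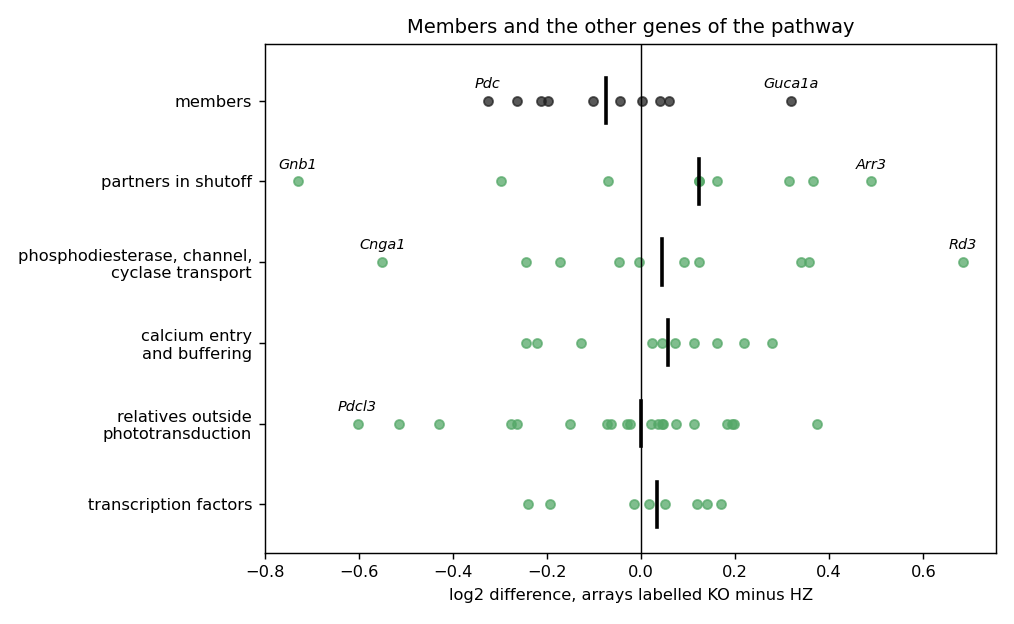
Log2 difference of each tested gene between the KO and HZ labels, by list, with the median of each list as a vertical bar. The 10 members span -0.33 to 0.32, and the largest differences of the lists shown are those of Gnb1 (-0.73) and Rd3 (0.68).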

How the data were processed

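The authors hybridised Cy3-labelled RNA of P8 photoreceptor cells to single-color Agilent arrays and deposited the spot intensity from Agilent Feature Extraction 10.7.1.1, already background-subtracted, with its marks for outlier spots and signal well above background. A second file deposited by the authors holds shifted log2 values, which were found to be centred on the median of each probe over the 8 arrays (r above 0.999 with the scanner values). It served as an alternative.

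Spot intensities were put on the log2 scale, and the 75th percentile of the 59305 spots other than controls was subtracted on each array. Spots marked as outliers were dropped, and replicate spots were averaged. A probe was tested if at least 4 arrays read it well above background and each label had at least 3 values, which left 34303 of 56605. Genes were named by RefSeq accession through the GRCm38.p6 annotation, which also gave neighbours and promoter windows. A gene was read by its probe of highest mean. Other probes of the members are given where they exist, and those of other genes only in part. limma 3.58.1 (R 4.3.3, data.table version 1.17.8) compared the labels with moderated two-sided tests and the replicate numbers with an F-test that kept the label in the model, both adjusted by Benjamini-Hochberg. Relations across arrays used exact permutation tests, two-sided, which were not among the planned tests. The fit was tested on simulated data. Plots were drawn with matplotlib 3.10.9.

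The methods give both pairs of thresholds and unpaired tests. After removal of the label means, r was 0.164 to 0.337 between arrays of the same number, above 0.1 in 4 of 4 pairs, and -0.340 to 0.118 between different numbers. The numbers, which are also slide columns, therefore pair the arrays. Alternatives were other scalings, background corrections, filters, probe rules and tests, the replicate block, and each array left out. The members and lists were chosen with earlier results of these data known. Named from each list are genes past the looser thresholds, the 2 with the largest difference and the gene with the largest range over replicate numbers. Also named are genes of the pathway lists whose KO and HZ arrays did not overlap, with Nt5e and Lpcat1. Some genes that the lists take in are not reported by name.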

Additional observations from a re-analysis of the deposited data

Results flagged for a closer look

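Guca1a on KO 1 (-0.41) stood apart from the other KO arrays, which lay between 0.53 and 0.67. The dimmest Rgs9 probe, with a mean of -4.76, read -3.61 on HZ 4 against -5.01 to -4.80 on the other HZ arrays. The mean deviation of 3 red blood cell markers was 0.26 on HZ 1 against -1.23 to -1.04 on the other HZ arrays, and these markers were higher on the arrays labelled KO in 3 of 3 genes (median 1.58). Each of these arrays lay further from the others of its label than the 95% critical value of Dixon's ratio for 4 samples allows. They were 3 of 62 sets of 4 values examined, where chance alone gives about 3.1.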

How the results depend on the processing

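Of 10 alternatives besides leaving out arrays, normexp background correction gave 1 member past the looser thresholds and 1 with an unadjusted p under 0.05 in place of 0 (Pdc in both), and eBayes with trend and robust gave 1 with an unadjusted p under 0.05 (Pdc). The other counts kept within 1.5 times, with 6 to 8 members lower, medians of -0.11 to -0.058 and 4 to 7 members with an F-test p under 0.05. The shares of all genes called under these alternatives were not counted. Quantile normalization turned the sign of Grk1 (-0.035) and Rgs9 (-0.015), scaling to the percentile of the probes detected on every array that of Rgs9 (-0.028), and the mean over probes that of Rgs9 (-0.29), where the dimmer probes were lower. The cause of the others was not tested. The methods' t-test passed 3135 probes at an unadjusted p of 0.05 and 3 after Benjamini-Hochberg adjustment, with 0 members in the latter.

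With each array left out in turn, 4 to 9 members were lower, with a median of -0.22 to 0.061. By the brightest probe, the number with an unadjusted p under 0.05 was 0 to 1 (Pdc without HZ 2 or KO 1, Rcvrn without KO 4), and 2 to 5 had an F-test p under 0.05. The shares of all genes with each array left out were not counted. The dimmer Guca1b probe had an unadjusted limma p of 0.034 without HZ 3, 0.043 without KO 1 and 0.041 without KO 4. By the brightest probes, the differences ranged from -0.20 to 0.089 for Gucy2e, -0.061 to 0.66 for Guca1a, -0.28 to 0.055 for Slc24a1, -0.11 to 0.14 for Grk1, -0.069 to 0.095 for Rgs9, -0.031 to 0.15 for Rgs9bp, -0.33 to -0.094 for Gucy2f, -0.39 to -0.14 for Guca1b, -0.34 to -0.12 for Rcvrn and -0.41 to -0.20 for Pdc. With the replicate number as a block, 0 members passed either pair of thresholds by their brightest probe. The lowest adjusted p of these probes was 0.440, for Gucy2f. Newly past the looser thresholds were a dimmer Rgs9 probe (0.430), Gnb1 (0.373) and a dimmer probe of Hpca, a relative of recoverin (0.309). Only probes of the members and of the genes named from the pathway lists, without Cngb3 and Otx2, were examined for this. How many of all tested probes were newly past was not counted. The lowest adjusted p of a member under any alternative was 0.226. The checks of genes that are not members and the values within pairs were chosen after seeing the data.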

Other observations

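Relatives of the members that act outside phototransduction were measured too. Of 25 listed cyclases, calcium sensors, kinases, exchangers and regulators of G proteins, 20 were tested, of which 10 were lower and 10 higher (median -0.0015) and 0 passed either pair of thresholds. By the probe of highest mean, the largest differences were those of Pdcl3, a phosducin-like protein (-0.60, standard error 0.46), and Gucy1a1, a subunit of soluble guanylate cyclase (-0.51, standard error 0.32). The first rested on KO 4, which read -2.39 against -0.31 to -0.22 on the other KO arrays, and was -0.072 without it. The second was -0.21 without HZ 2. Hpca, hippocalcin, a neuronal relative of recoverin, had the largest range over replicate numbers, 1.38, with means of -1.84, -0.79, -1.64 and -2.16 for numbers 1 to 4, highest where the means of most members were low. A dimmer Hpca probe differed by -1.33, a fold of 2.51, with a limma adjusted p of 0.625. With the replicate number in the model its adjusted p was 0.309, which passed the looser thresholds, and the share of all genes that did so was not counted. Numbers 1 and 4 lay above 2 and 3 in 3 of the 20, and 2 and 3 above 1 and 4 in 7.

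Of 8 tested transcription factors of photoreceptors, 3 were lower and 5 higher (median 0.034), and 0 passed either pair of thresholds. Neurod1, which helps specify photoreceptors, was lower on all KO arrays than on all HZ arrays (difference -0.24, standard error 0.11, limma adjusted p = 0.637), and the difference was -0.14 without KO 1. Otx2 went the other way, higher on all KO arrays than on all HZ arrays (difference 0.12, standard error 0.072, limma adjusted p = 0.693). Of all genes, 2.52% were lower without overlap, and the share higher without overlap was not counted. Nr2e3, a rod factor that represses cone genes, differed by -0.19 (standard error 0.13), and by -0.079 without HZ 4. Rxrg, a nuclear receptor of cones, had the largest range over replicate numbers, 0.81, with means of 2.46, 2.84, 2.69 and 2.03.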
